A study of Mus musculus with 10 samples.

Results

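Fatty acid binding proteins are small cytosolic proteins that hold long-chain fatty acids and carry them through the aqueous cell interior to membranes, mitochondria, lipid droplets and nuclear receptors. Described here are the genes Fabp3, Fabp4, Fabp5 and Fabp7, which are 4 of the 50559 genes counted in bulk RNA of mouse MYC/SMARCA4 tumors, of cerebella at P7 and of SHH MB. They were chosen by symbol. Fabp4 was selected on its measured expression, because the paper names it as raised in the tumors, so that its values in comparisons with the tumors are a description and carry no test. All 4 genes were among the 29952 genes that passed the filter on low counts, but Fabp4 did so through its level in the tumors and was no longer among the tested genes when tumor 2, 3 or 4 was left out.

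The 4 MYC/SMARCA4 tumors grew in CD1nu/nu recipients from transplanted granule cell precursors of Math1-creERT2::Smarca4fl/fl pups that had received tamoxifen at P3. The precursors were transduced with a lentivirus for murine Myc and GFP and were transplanted without sorting. Tumors 1 to 4 were 112, 96, 89 and 79 days old by their labels. The 3 P7 cerebella were whole cerebella of Math1-creERT2::Smarca4fl/fl mice, 7 days old, injected with 0.4 mg tamoxifen at P3, so that they carried the same conditional deletion in cells with an active Math1 promoter. The 3 SHH MB came from Math1-cre::Smofl/wt mice and have an age of 7 days in the labels. Age, host strain and the mix of cells in the tissue cannot be told apart from the difference between the tumors and the other groups. In total, 6547245, 6945005, 5663491 and 9352109 reads were counted in tumors 1 to 4. The totals were 8958307, 8139778 and 5933515 in P7 cerebella 1 to 3 and 5930961, 7933586 and 7031248 in SHH MB 1 to 3.

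The group labels were first checked on the altered genes and on markers of the granule cell lineage. Levels are given in CPM, counts scaled to normalized library size. Myc measured 151, 365, 1570 and 1010 CPM in tumors 1 to 4, 12.9 to 14.2 CPM in the P7 cerebella and 33.4 to 45.4 CPM in the SHH MB. Each tumor was above every other library, with log2 fold changes of 5.85 against P7 cerebella (edgeR adjusted p = 0.00194) and 4.31 against SHH MB (adjusted p = 0.00428). The counts include the murine Myc of the vector. Smarca4 measured 207, 242, 135 and 236 CPM in the tumors, 219, 280 and 257 CPM in the P7 cerebella and 541, 486 and 585 CPM in the SHH MB. The tumors overlapped with the P7 cerebella (-0.30, adjusted p = 0.495) and were below all 3 SHH MB (-1.39, adjusted p = 0.0157), a call lost without SHH MB 1, 2 or 3 (adjusted p 0.00196 to 0.122 with 1 library left out). Reads of the whole gene were counted, those of a recombined allele included. Mycn and Barhl1 fell in all 4 tumors against P7 cerebella (-3.74, adjusted p = 0.00192, and -3.16, adjusted p = 2.29e-04) and against SHH MB (-5.01, adjusted p = 1.47e-04, and -4.78, adjusted p = 6.28e-06). The SHH target Ptch1 measured 117 to 485 CPM in the tumors and 1110 to 1490 CPM in the SHH MB (-2.30, adjusted p = 0.00875), and without SHH MB 3 the adjusted p was 0.058, the highest with 1 library left out (lowest 0.0017). Gli1 and Atoh1 were also below all SHH MB in all 4 tumors but missed the threshold (-1.62, adjusted p = 0.113, and -2.95, adjusted p = 0.0521). Without tumor 1 Gli1 passed at an adjusted p of 0.00716 (up to 0.319 with another library left out), and Atoh1 passed without tumor 1 or tumor 3 (0.00922 to 0.18). Zic1, a gene of the granule cell lineage, measured 270 to 892 CPM in the tumors, 809 to 919 CPM in the P7 cerebella and 773 to 901 CPM in the SHH MB. Among the 14 genes listed for this check, 1 rose and 3 fell against P7 cerebella, and 1 rose and 6 fell against SHH MB, where the count of 6 became 3 without SHH MB 3 and 11 without tumor 1. In SHH MB against P7 cerebella 1 rose and 1 fell, and 8 rose without tumor 1. The median log2 fold changes of these genes were -0.61, -1.57 and 1.40.

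Tumors 1 and 3 each stood apart from the other tumors. The 18 proliferation markers, with Mki67 the most abundant, summed to 183 CPM in tumor 1 and to 2490, 2640 and 2790 CPM in tumors 2, 3 and 4. They summed to 1430, 1040 and 1140 CPM in the P7 cerebella and to 2900, 2820 and 3300 CPM in the SHH MB. By edgeR 0 of them were called in any comparison. At an unadjusted p under 0.05, 2 were higher in the tumors than in P7 cerebella, 0 differed between tumors and SHH MB, and 3 were higher in SHH MB than in P7 cerebella, while DESeq2 and limma called 0. Without tumor 1, 16 rose in the tumors against P7 cerebella, 1 fell against SHH MB and 13 rose in SHH MB against P7 cerebella. The medians over all 10 libraries were 0.94, -0.22 and 1.13. Mitochondrial genes took 6.36% of the counts in tumor 1 (95% Wilson interval 6.34 to 6.38) and 2.94% (2.92 to 2.95), 2.89% (2.88 to 2.9) and 2.29% (2.28 to 2.3) in tumors 2, 3 and 4. The share was at most 1.59% in the P7 cerebella (1.58 to 1.6) and at most 1.52% in the SHH MB (1.51 to 1.53). Genes that collect rRNA-like reads took 1.55% (1.54 to 1.56), 1.51% (1.5 to 1.51), 1.5% (1.49 to 1.51) and 1.95% (1.94 to 1.96) of the counts in tumors 1 to 4. They took at most 0.41% in the P7 cerebella (0.405 to 0.415) and at most 0.863% in the SHH MB (0.855 to 0.87), so that this share also separated the tumors from both groups. Tumor 3 was the lowest of the 4 tumors in Fabp7 and in the summed astrocyte, granule neuron, Purkinje cell and myelin markers, at 878, 458, 477 and 145 CPM.

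The members differ in where they are best known. Fabp7, also called brain lipid binding protein, is made by radial glia, Bergmann glia and astrocytes of the developing cerebellum. Fabp5, the epidermal type, is broadly expressed and occurs in neurons and glia. Fabp3, the heart type, serves muscle and is also made by neurons. Fabp4, the adipocyte type, is a target of the nuclear receptor Pparg and occurs in fat cells, macrophages and the endothelium of small vessels.

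On GRCm39, Fabp7 lies on chromosome 10 from 57660956 to 57664554 and Fabp3 on chromosome 4 from 130202388 to 130209259. Fabp5 (10077602 to 10081674) and Fabp4 (10268785 to 10273737) lie on chromosome 3. All are protein coding. Promoter windows of RefSeq (GRCm38.p6), from 250 bases before to 50 bases after the start, are printed for Fabp7 and Fabp3, and both were located without mismatch on GRCm39. The Fabp7 window is chr10:57660769-57661068 and the Fabp3 window chr4:130202281-130202580, both on the plus strand, printed 5′ to 3′ with motif matches in capitals.
Fabp7: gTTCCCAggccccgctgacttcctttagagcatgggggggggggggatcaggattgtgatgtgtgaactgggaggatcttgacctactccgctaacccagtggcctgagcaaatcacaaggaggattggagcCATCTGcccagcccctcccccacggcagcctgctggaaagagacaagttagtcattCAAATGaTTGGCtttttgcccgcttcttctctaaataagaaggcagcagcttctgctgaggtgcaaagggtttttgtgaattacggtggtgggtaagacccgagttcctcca
Fabp3: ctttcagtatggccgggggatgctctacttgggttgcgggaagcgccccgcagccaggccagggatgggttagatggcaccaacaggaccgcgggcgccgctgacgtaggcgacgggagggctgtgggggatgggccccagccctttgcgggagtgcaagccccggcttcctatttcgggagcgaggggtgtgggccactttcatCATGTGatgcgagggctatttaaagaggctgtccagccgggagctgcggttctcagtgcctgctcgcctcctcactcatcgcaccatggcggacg
Of these bases, 113 in Fabp7 and 193 in Fabp3 lie in an exon of GENCODE, which places the start further upstream.

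Motifs were searched on both strands of these windows and of all 32851 promoters of the table. The E-box core CANNTG lay 45 bases before the start of Fabp3 and 118 and 62 bases before that of Fabp7, and occurs in 72.3% of all promoters. TTGGC, bound by nuclear factor I, lay 55 bases before the start of Fabp7 and occurs in 46.7% of promoters. TGGGAA, bound by RBPJ, was read on the minus strand of Fabp7 at 249 bases before the start and occurs in 25.6%. The Myc and Max motif CACGTG, which is one form of CANNTG, occurs in 7.15% of promoters and its letters are not in either window. The same holds for the POU octamer ATTTGCAT (1.74%) and for TATAAA (13.6%). The palindromic nuclear factor I site, which contains TTGGC, and the response element of PPAR with RXR, in 0.0365% and 0.0396% of promoters, were not in these windows either. A match describes letters and was not tested as a binding site.

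Some of the reads of Fabp3 and Fabp5 could also be placed elsewhere. The transcript of Fabp3 has 1 near copy of 754 bases at 99.1% identity, a pseudogene with 0 counts in every library. Fabp5 has 5 near copies, the longest of 678 bases at 98.7% identity, and their pseudogenes had from 0 to 70 counts per library. Fabp4 and Fabp7 have 0 near copies of at least 75 bases at 90% identity. Of the 847 exon bases of Fabp3, 491 are shared with Zcchc17 on the opposite strand. How the authors counted such reads is not given in the sources used here, so that levels of Fabp3 and Fabp5 carry that uncertainty.

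Fabp7 and Fabp3 fell in the tumors against P7 cerebella, and Fabp7 also fell against SHH MB. Fabp5 varied between the tumors and did not pass the test in either comparison. Fabp4 was close to the limit of detection in the P7 cerebella and SHH MB and higher in CPM in each tumor. In tumor 1 this rests on 6 counts, beside at most 5 in a library of those groups. By edgeR, 2 of the 3 tested members fell and 0 rose against P7 cerebella, and 1 fell and 0 rose against SHH MB. No tested member was higher at an unadjusted p under 0.05 or by DESeq2 or limma, each with a count of 0. Over all genes tested, 3.99% (1194 genes) rose and 2.27% (680 genes) fell against P7 cerebella, and 2.43% (727 genes) rose and 2.26% (676 genes) fell against SHH MB. In SHH MB against P7 cerebella 0.177% (53 genes) rose and 0.0467% (14 genes) fell. These counts depend on single libraries. Against P7 cerebella they ran from 35 without P7 cerebellum 2 to 3381 without tumor 3 for higher genes, and from 159 without P7 cerebellum 3 to 6551 without tumor 3 for lower genes. Against SHH MB they ran from 54 without SHH MB 3 to 2750 without tumor 3 and from 257 without SHH MB 3 to 3979 without tumor 3. The tumors are shared by both comparisons, which are therefore not independent.

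**Figure D1:**
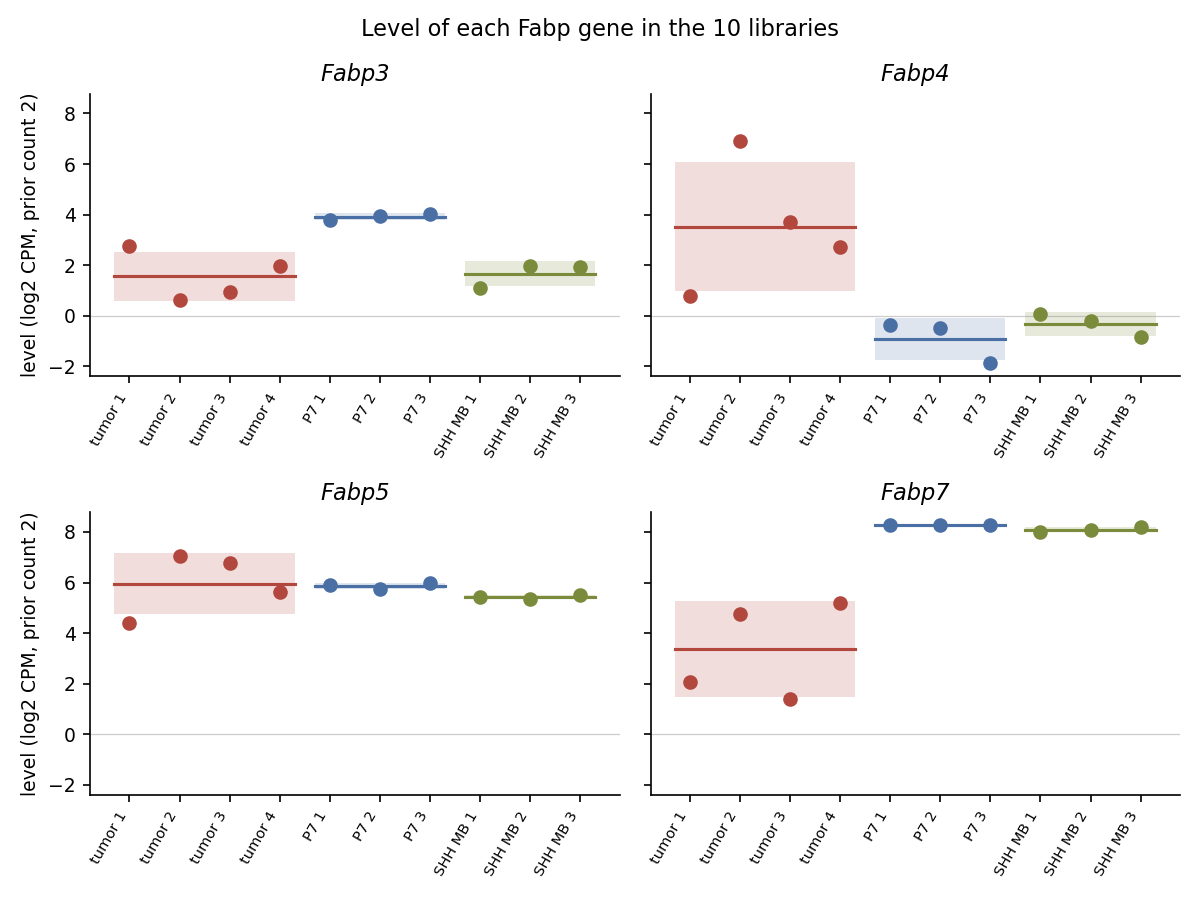
Levels of Fabp3, Fabp4, Fabp5 and Fabp7 in log2 CPM (vertical axis) in the 4 MYC/SMARCA4 tumors, 3 P7 cerebella and 3 SHH MB, with a point per library, the group mean as a line and 1 SD as a band. Fabp7 had a mean of 3.36 in the tumors and of 8.27 and 8.08 in the P7 cerebella and SHH MB.

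Fabp7, the brain type carried by developing glia, was the most strongly lowered member. Its counts were 16, 151, 17 and 299 in tumors 1 to 4, against 3026, 2876 and 2170 in the P7 cerebella and 1641, 2301 and 2076 in the SHH MB. In CPM this was 3.93, 26.9, 2.36 and 36.2 in the tumors, 307, 311 and 307 in the P7 cerebella and 253, 269 and 292 in the SHH MB. All tumors were below all other libraries without overlap, and tumors 1 and 3 were far below tumors 2 and 4. On the log2 scale the tumors lay at -6.20, -3.50, -6.87 and -3.08 from the mean of the P7 cerebella and at -6.01, -3.31, -6.68 and -2.89 from that of the SHH MB. The log2 fold change of Fabp7 was -4.14 against P7 cerebella (SE 0.72, edgeR adjusted p = 0.00943, lower in 4 of 4 tumors). Against SHH MB it was -3.96 (SE 0.71, adjusted p = 0.00838, lower in 4 of 4 tumors). Fabp7 fell in each of the 10 fits with 1 library left out. When only tumors and P7 cerebella were fitted, the value was -4.25 and the adjusted p, 0.05 as rounded, was just over the threshold (range over 19 alternatives 4.84e-07 to 0.05).

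Fabp7 is a marker of astrocytes, radial glia and Bergmann glia, and 20 other markers of these cells did not all move with it. Of these 20, 6 fell against P7 cerebella (Aqp4, Gdf10, Aldh1l1, Sox9, Slc6a11 and Tnc) and 4 fell against SHH MB (Aldh1l1, Sox9, Slc6a11 and Tnc), where Gjb6 and Aldoc rose (3 by DESeq2, 0 by limma). Aldoc is also in the list of Purkinje cell markers. The count of 6 ran from 2 without P7 cerebellum 2 or 3 to 8 without tumor 3. Against P7 cerebella 0 rose by edgeR, 2 at an unadjusted p under 0.05 and 0 by DESeq2 and by limma, while 4 rose without tumor 3. The 2 that rose against SHH MB became 0 without tumor 2 or 4 or any of the P7 cerebella or SHH MB, and 5 without tumor 3. Medians of these markers were -0.35 against P7 cerebella and -0.01 against SHH MB, beside -0.05 and 0.01 for all genes tested. Summed, they reached 2250, 4300, 878 and 3350 CPM in tumors 1 to 4, 3590, 3690 and 3570 CPM in the P7 cerebella and 3090, 3360 and 3550 CPM in the SHH MB, with none of the defining markers at 0. Slc1a2 was the most abundant in tumors 2, 3 and 4 and in the SHH MB, Aldoc in tumor 1 and Aqp4 in the P7 cerebella. Slc1a3, the glial glutamate transporter, measured 95.8, 387, 55.7 and 270 CPM in tumors 1 to 4 and 327 to 494 CPM in the other libraries. Other markers of the list differed from this in tumor 1, where Aldoc (627 CPM) and Septin4 (207 CPM) were higher than in any other library. Fewer glial cells and less Fabp7 RNA per cell cannot be told apart in bulk samples.

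The oligodendrocyte precursor markers also fell, 5 of 10 in each comparison with the tumors (medians -1.59 and -1.27). The count of 5 ran from 2 without P7 cerebellum 2 to 9 without tumor 3, and against SHH MB from 3 without any 1 SHH MB to 7 without tumor 1. They summed to 110, 218, 140 and 146 CPM in the tumors, 397, 428 and 386 CPM in the P7 cerebella and 506, 544 and 549 CPM in the SHH MB, with Pdgfra the most abundant in every library except tumor 1, where Olig1 was. Of 9 factors known to act on the Fabp7 promoter, Nfia (-2.28, adjusted p = 0.00294) and Nfib (-1.45, adjusted p = 0.0391), both nuclear factor I proteins, fell against SHH MB. Nfia kept its call in 10 of 10 fits with 1 library left out and Nfib in 3, losing it without tumor 4 or any P7 cerebellum or SHH MB (adjusted p 0.00446 to 0.193). The number of these factors that fell was 1 without any 1 SHH MB and 5 without tumor 1. Against P7 cerebella 0 of the 9 were called by edgeR (median -0.56), with 1 higher and 3 lower at an unadjusted p under 0.05, 1 and 1 by DESeq2 and 0 by limma. Against SHH MB 6 were lower at an unadjusted p under 0.05, 5 by DESeq2 and 3 by limma. The median against SHH MB was -1.19. Between SHH MB and P7 cerebella it was 0.44. Their part in the level of Fabp7 was not tested.

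**Figure D2:**
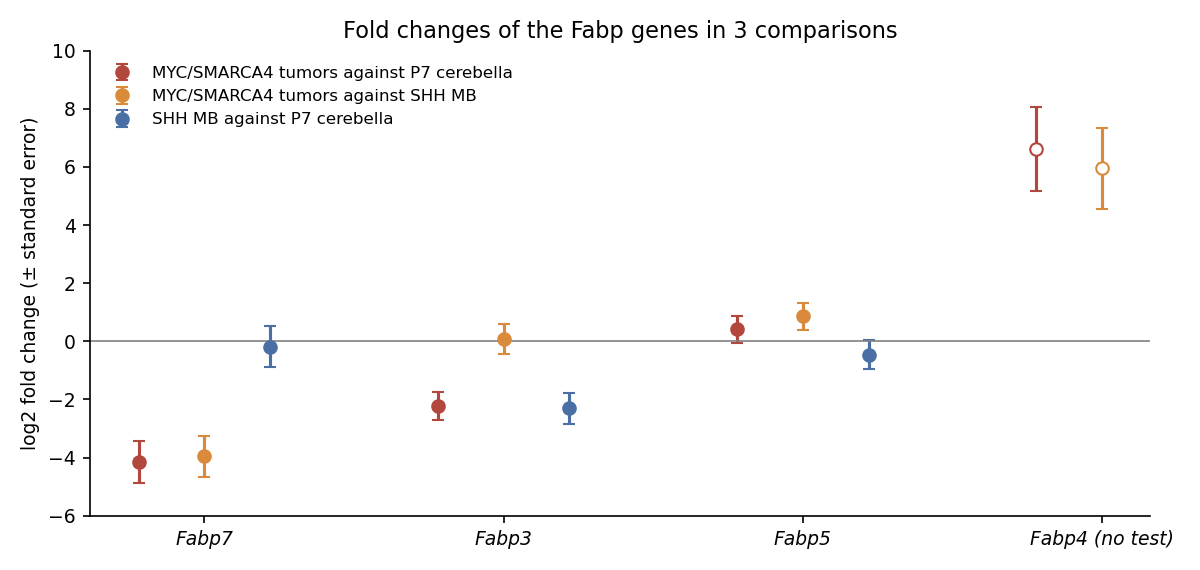
Log2 fold change with its SE (vertical axis) of each member in the 3 comparisons, with open symbols for Fabp4, which has no test. Fabp7 lay at -4.14 and -3.96 in the comparisons with the tumors and at -0.18 in SHH MB against P7 cerebella.

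Fabp3, the heart type, fell in the tumors against P7 cerebella. Its levels in the SHH MB were below those of the P7 cerebella by a similar amount (-2.30). That difference did not pass the test in the fit of all libraries (edgeR adjusted p = 0.132). It passed when only SHH MB and P7 cerebella were fitted (-2.26, edgeR adjusted p = 1.52e-07), in a range up to 0.654 over the alternatives. Fabp3 counts were 26, 7, 12 and 30 in tumors 1 to 4, 133, 140 and 114 in the P7 cerebella and 12, 31 and 25 in the SHH MB. In CPM this was 6.39, 1.25, 1.67 and 3.63 in the tumors, 13.5, 15.2 and 16.1 in the P7 cerebella and 1.85, 3.62 and 3.52 in the SHH MB. Every tumor and every SHH MB was below every P7 cerebellum, and tumors and SHH MB overlapped. The log2 fold change of Fabp3 against P7 cerebella was -2.23 (SE 0.49, edgeR adjusted p = 0.0219, lower in 4 of 4 tumors). This call was lost under several settings, among them without P7 cerebellum 1 (-2.45, adjusted p = 0.0552), P7 cerebellum 2 (-2.38, 0.0771) or P7 cerebellum 3 (-2.31, 0.0785). The call was also lost when only tumors and P7 cerebella were fitted (-2.40, 0.0536) and with a replicate block (-2.42, 0.0894). Its adjusted p ran from 5.48e-04 to 0.0894 over 18 alternatives. Fabp3 was at 0.07 in the tumors against SHH MB (adjusted p = 0.958), with tumors on both sides of the SHH MB. The sign turned under 8 of 18 alternatives, among them to -0.56 without tumor 1, -0.16 without tumor 4, -0.19 without SHH MB 1 and -0.07 without P7 cerebellum 1, 2 or 3.

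Markers of heart and skeletal muscle, tissues rich in Fabp3, were read beside it. Of 14 tested among 16, 0 were called by edgeR against P7 cerebella (median -0.67), with 1 higher and 1 lower at an unadjusted p under 0.05 and 0 by DESeq2 and limma, and 7 fell and 1 rose without tumor 3. Against SHH MB, Pvalb rose (median -0.04; 1 by DESeq2, 0 by limma), a call lost without tumor 2 or any P7 cerebellum or SHH MB. Summed they reached 1030, 471, 111 and 280 CPM in the tumors, 396, 421 and 366 CPM in the P7 cerebella and 155, 147 and 120 CPM in the SHH MB, with Ckm at 0 in tumor 2. Ryr2 was the most abundant in every library except tumor 1, where Pvalb was. Both are also expressed by cerebellar neurons and made up most of the sum in tumors 1 and 2, with Ryr2 at 429 and 345 CPM, and the source of these reads was not tested. Of 12 markers of mature granule neurons, cells that can hold Fabp3, 4 rose against P7 cerebella (Gabra6, Cbln3, Grin2c and Slc17a7, median 2.54) and 9 rose against SHH MB (median 3.98). DESeq2 gave 10 and 11, and limma 1 and 6. Those counts ran from 0 without any 1 P7 cerebellum to 11 without tumor 3 and from 2 without SHH MB 3 to 12 without tumor 3. They summed to 11900, 4100, 458 and 2290 CPM in tumors 1 to 4, 1190, 1170 and 1050 CPM in the P7 cerebella and 449, 550 and 557 CPM in the SHH MB, with Kcnd2 the most abundant in every library except tumor 2, where Snap25 was. Of 12 Purkinje cell markers 5 rose against SHH MB (median 2.73), 6 by DESeq2 and 0 by limma, with 0 without any 1 P7 cerebellum or SHH MB and 11 without tumor 3. Against P7 cerebella 0 rose by edgeR (median 0.99), 5 at an unadjusted p under 0.05, 4 by DESeq2 and 0 by limma. They summed to 14400, 3640, 477 and 2560 CPM in the tumors, 1970, 1970 and 1850 CPM in the P7 cerebella and 863, 889 and 564 CPM in the SHH MB, with Itpr1 the most abundant. Tumor 1, highest in these neuronal markers, also had the highest Fabp3 CPM of the 4 tumors. Tumor 2, next in both sums, had the lowest Fabp3 of all libraries (1.25 CPM). The P7 cerebella had lower sums than tumors 1, 2 and 4 but more Fabp3 than any tumor (13.5 to 16.1 CPM). The part of these cells in the level of Fabp3 was not tested.

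Fabp5, the epidermal type, spanned a wide range among the tumors. Fabp5 counts were 84, 743, 778 and 408 in tumors 1 to 4, 587, 496 and 444 in the P7 cerebella and 277, 348 and 318 in the SHH MB. In CPM this was 20.6, 133, 108 and 49.4 in the tumors, 59.5, 53.7 and 62.8 in the P7 cerebella and at most 44.8 in the SHH MB, whose mean log2 CPM was 5.43. Tumors 2 and 3 were above every other library, tumor 1 was below every other library, and tumor 4 lay between the P7 cerebella and the SHH MB. The log2 fold change of Fabp5 was 0.41 against P7 cerebella (SE 0.47, edgeR adjusted p = 0.577, higher in 2 of 4 tumors), with 0.02 without tumor 2, 0.12 without tumor 3 and 0.64 without tumor 1. Against SHH MB it was 0.86 (SE 0.47, adjusted p = 0.338, higher in 3 of 4 tumors). Without tumor 1 the second of these was 1.07 and passed the test (adjusted p = 0.0413, range over 19 alternatives 0.0413 to 0.649). A p that misses the threshold does not show that Fabp5 was the same in these groups.

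Fabp4, the adipocyte type, is described only. Fabp4 counts were 6, 668, 91 and 52 in tumors 1 to 4, 5, 4 and 0 in the P7 cerebella and 5, 5 and 2 in the SHH MB. In CPM this was 1.47, 119, 12.6 and 6.29 in the tumors, 0.507, 0.433 and 0 in the P7 cerebella and 0.771, 0.584 and 0.282 in the SHH MB. Each tumor was above all other libraries, but tumor 1 rests on 6 counts and tumor 2 was far above the other tumors. The floor of 3 counts per library corresponds to 0.304 to 0.737 CPM, so that the P7 cerebella and SHH MB were at or near it, and no fold between these groups is given. The fitted log2 fold changes of 6.63 against P7 cerebella and 5.96 against SHH MB depend on values near the floor and were 3.33 and 2.93 on the deposited VST values.

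Adipocytes are known for Fabp4, and no adipocyte marker was called. Of 9 tested among 10, 0 were called by edgeR in any comparison, 0 or, against SHH MB, 1 lower at an unadjusted p under 0.05, and 0 by DESeq2 and limma, while without tumor 3 1 fell in each comparison with the tumors. Their medians were -0.91, -0.29 and -0.35 against P7 cerebella, against SHH MB and in SHH MB against P7 cerebella. Adiponectin (Adipoq) measured 0.737, 1.07, 1.53 and 0.484 CPM in tumors 1 to 4 and 1.08 to 2.55 CPM in the other libraries, Lep was at 0 in tumor 2, and Plin1 measured 0.178 CPM in tumor 2. Summed, the list reached 77.4, 28.9, 30.7 and 36.2 CPM in the tumors, 37.2, 43.1 and 41 CPM in the P7 cerebella and 41.5, 32.5 and 35.8 CPM in the SHH MB, with Plin4 the most abundant except in tumor 2, P7 cerebellum 2 and SHH MB 3, where Thrsp was. Pparg, whose protein drives Fabp4 in fat cells, measured 9.83, 28.2, 6.25 and 4.35 CPM in tumors 1 to 4, 4.66, 3.9 and 5.23 CPM in the P7 cerebella and 3.24, 3.39 and 2.54 CPM in the SHH MB. Tumor 2 was highest in both genes, but the other tumors did not keep the same order. Tumor 1 was next in Pparg and lowest of the tumors in Fabp4 (1.47 CPM). Tumor 4 had Pparg within the range of the P7 cerebella and Fabp4 at 6.29 CPM. The part of Pparg in the level of Fabp4 was not tested.

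Endothelial cells and macrophages are other cells that hold Fabp4. Of 18 endothelial markers 0 were called against P7 cerebella by edgeR (median 0.08), with 2 higher and 3 lower at an unadjusted p under 0.05, 2 and 1 by DESeq2 and 0 by limma, while 6 fell without tumor 1 and 2 rose without tumor 3. Against SHH MB Kdr and Sox18 fell (median -0.06), 1 without tumor 2 or any 1 SHH MB and 7 without tumor 1. They summed to 717, 313, 202 and 265 CPM in tumors 1 to 4, 355, 334 and 331 CPM in the P7 cerebella and 428, 371 and 408 CPM in the SHH MB. The most abundant was Vwf in tumor 1, Flt1 in tumors 2, 3 and 4 and P7 cerebellum 2, Sox18 in SHH MB 2 and Kdr in the other libraries. Of 20 microglia and macrophage markers Lyz2 rose against P7 cerebella (median 0.48), a count of 0 without any 1 P7 cerebellum and 7 without tumor 3. Against SHH MB 0 were called by edgeR (median 0.68), 5 at an unadjusted p under 0.05, 3 by DESeq2 and 0 by limma, and 6 rose without tumor 3. They summed to 332, 195, 112 and 310 CPM in the tumors, 155, 158 and 144 CPM in the P7 cerebella and 150, 144 and 110 CPM in the SHH MB, with Csf1r the most abundant except in tumor 3 and SHH MB 3 (Mrc1) and tumor 4 (Lyz2). Of 14 meninges and fibroblast markers Ogn rose and Postn fell against P7 cerebella (median 0.19) and Postn fell against SHH MB (median 0.35). By limma 0 rose and 0 fell against P7 cerebella and 1 fell against SHH MB. The call of Ogn was lost without tumor 2 or 4 or any P7 cerebellum or SHH MB, and Postn against P7 cerebella without tumor 2 or any P7 cerebellum or SHH MB and against SHH MB without SHH MB 3. They summed to 497, 2610, 948 and 656 CPM in the tumors, 705, 746 and 646 CPM in the P7 cerebella and 698, 585 and 808 CPM in the SHH MB, with Igf2 the most abundant. Igf2 alone measured 2170 CPM in tumor 2, so that the high sum in that tumor rests on a single gene. The part of these cells in the level of Fabp4 was not tested.

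**Figure D3:**
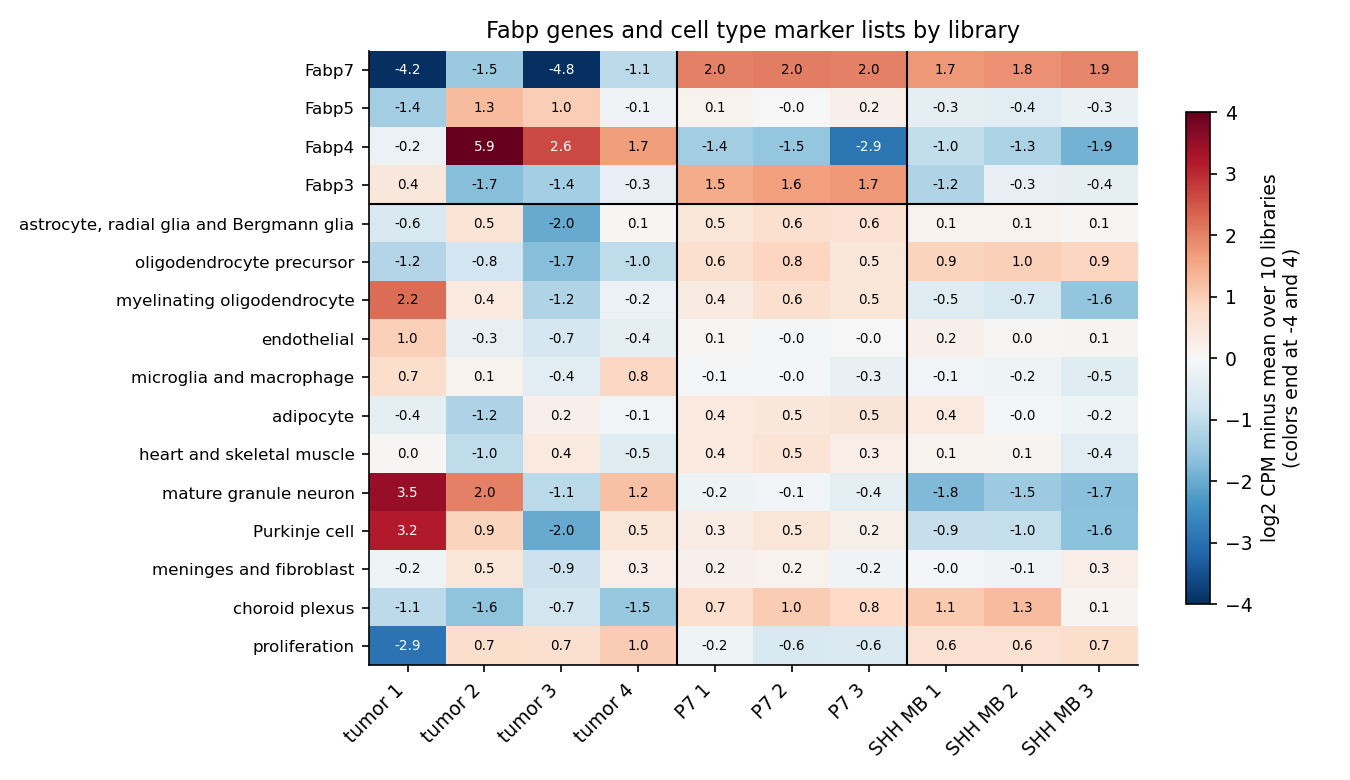
Heat map of the members and of 12 marker lists in the 10 libraries, as log2 CPM centred on the mean of each over the libraries, with colors ending at -4 and 4. Tumor 1 was lowest in proliferation markers, with a mean of 2.81 log2 CPM.

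Myelinating oligodendrocyte and choroid plexus markers complete the cell types shown with the members in the heat map. Of 12 myelin markers 0 were called against P7 cerebella by edgeR (median 0.26), 1 higher at an unadjusted p under 0.05, 1 by DESeq2 and 0 by limma. Mal rose against SHH MB (median 1.64), which became 0 without any 1 SHH MB and 7 without tumor 3. They summed to 4200, 889, 145 and 479 CPM in the tumors, 1000, 1180 and 1130 CPM in the P7 cerebella and 426, 404 and 146 CPM in the SHH MB, with Mbp the most abundant. Of 10 choroid plexus markers Ttr and Aqp1 fell in each comparison with the tumors (medians -1.40 and -1.35), and 8 and 7 fell without tumor 3. At an unadjusted p under 0.05, 7 and 6 of these markers were lower, by DESeq2 5 and 3 and by limma 2 and 3. They summed to 166, 213, 167 and 91.7 CPM in the tumors, 745, 1370 and 832 CPM in the P7 cerebella and 1130, 1520 and 405 CPM in the SHH MB. Ttr was the most abundant in every P7 cerebellum and SHH MB, and Enpp2 in tumor 1, Otx2 in tumors 2 and 3 and Kcnj13 in tumor 4. The edgeR count was 1 without any 1 P7 cerebellum in either comparison and, against SHH MB, also without tumor 2 or any 1 SHH MB.

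The make-up of the family changed between the groups. Levels between genes were compared as CPM per kb of exon length. Fabp7 reached 240, 243 and 240 CPM per kb in the P7 cerebella and 198, 210 and 229 in the SHH MB, and 3.07, 21.1, 1.84 and 28.3 in tumors 1 to 4. Fabp5 reached 54.7, 49.4 and 57.8 in the P7 cerebella, 39.3, 37.4 and 41.2 in the SHH MB and 19, 122, 99.3 and 45.4 in the tumors. Fabp3 reached 15.9, 17.9 and 19 in the P7 cerebella, 2.19, 4.28 and 4.16 in the SHH MB and 7.54, 1.47, 1.97 and 4.28 in the tumors. In all P7 cerebella and SHH MB the order was Fabp7, Fabp5, Fabp3 and Fabp4, and in all 4 tumors Fabp5 came first. The log2 difference of Fabp7 and Fabp5 was -2.59, -2.53, -5.71 and -0.68 in tumors 1 to 4, 2.13, 2.30 and 2.05 in the P7 cerebella and 2.33, 2.49 and 2.47 in the SHH MB, so that its sign differed between the tumors and all other libraries. Of the sum of the 4 members, Fabp4 held 3.47, 37.3, 8.12 and 5.5% in tumors 1 to 4. That sum was 30.7, 231, 112 and 82.5 CPM per kb in the tumors, 311, 311 and 317 in the P7 cerebella and 240, 252 and 274 in the SHH MB, lower in each tumor than in every other library.

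**Figure D4:**
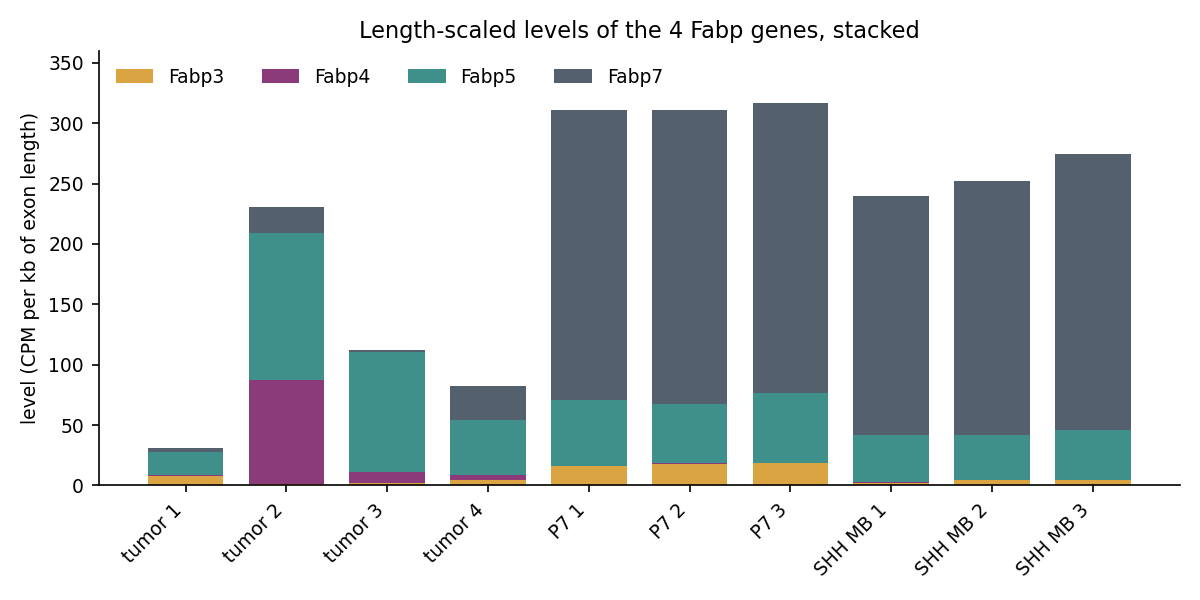
Stacked bars of CPM per kb of exon length (vertical axis) of the 4 members in each of the 10 libraries. Fabp7 formed most of each bar in the P7 cerebella and SHH MB, and Fabp5 was the largest portion in tumors 1 to 4.

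In SHH MB against P7 cerebella, Fabp7 was at -0.18 (SE 0.71, edgeR adjusted p = 0.972), Fabp5 at -0.46 (SE 0.50, adjusted p = 0.864) and Fabp3 at -2.30 (SE 0.53, adjusted p = 0.132). Fabp7 reached 292 CPM in SHH MB 3 and 307 CPM in P7 cerebella 1 and 3, so that these groups lay close together. By edgeR 0 of the 3 members were called, and at an unadjusted p under 0.05 and by DESeq2 1 was lower, while limma called 0. Fabp3 passed the test without tumor 1 (-2.27, adjusted p = 0.01), without tumor 3 (-2.32, 0.0264), by DESeq2 (-2.26, 0.00301) and when only these groups were fitted (-2.26, 1.52e-07), in a range up to 0.654. Fabp5 passed when only these groups were fitted (-0.44, adjusted p = 0.0139), in a range up to 1. Among the listed genes Barhl1, Srebf1, Olig2 and Sox18 rose and Neurod2 fell in this comparison, each call lost without any 1 P7 cerebellum or SHH MB. Medians were -0.52 for astrocyte, -0.05 for oligodendrocyte precursor, -1.51 for myelin, 0.05 for endothelial, -0.22 for microglia, -0.59 for muscle, -1.41 for granule neuron, -1.63 for Purkinje cell, -0.08 for meninges and 0.09 for choroid plexus markers, beside -0.09 for all genes tested. The overall counts were 854 higher and 356 lower without tumor 1, and 0 and 0 without any 1 P7 cerebellum, with 1112 and 886 at an unadjusted p under 0.05 without P7 cerebellum 1.

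Other relatives that bind fatty acids or retinoids did not pass the test. Of 11 listed, 6 were tested, and 0 were called by edgeR, DESeq2 or limma in any comparison, with 2 lower at an unadjusted p under 0.05 in the tumors and in the SHH MB against P7 cerebella and 0 in the tumors against SHH MB. Medians were -0.33, 0.39 and -0.82. Crabp1 was at -1.46 (adjusted p = 0.186), Crabp2 at 0.33, Pmp2 at 0.07, Fabp12 at -0.18 and Rbp7 at -0.48 against P7 cerebella. Fabp1, Fabp2, Fabp6, Fabp9 and Rbp2 were not tested, with at most 11, 23, 17, 12 and 13 counts in a library. Without tumor 3, 1 relative fell against P7 cerebella.

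Single genes that handle the fatty acids carried by the members were called in both directions. In the comparison with P7 cerebella 3.99% of all genes tested rose and 2.27% fell, and whether a list differs from these shares was not tested. Against P7 cerebella, of 23 genes for uptake and activation Lpl, a lipoprotein lipase, rose (2.12, adjusted p = 0.0477) and the acyl-CoA binding Dbi fell (-1.37, adjusted p = 0.0351). Lpl measured 68.4, 56.6 and 39.1 CPM in tumors 2, 3 and 4, but 7.12 CPM in tumor 1, below every P7 cerebellum (7.64 to 13.4 CPM). Of 19 genes for lipid droplets and lipolysis, Dgat2, which completes triglycerides, rose (1.32, adjusted p = 0.0328), the lipase Pnpla2 rose (1.15, adjusted p = 0.0335) and the droplet coat Plin5 fell (-1.63, adjusted p = 0.0319). Lpl, Plin5, Dgat2 and Pnpla2 kept these calls in 2 of 10 fits with 1 library left out, losing them without tumor 2, tumor 4, or any P7 cerebellum or SHH MB (highest adjusted p 0.25, 0.182, 0.224 and 0.174). Dbi kept its call in 3, losing it without tumor 4 or any P7 cerebellum or SHH MB (highest 0.149). Of 28 genes for beta-oxidation the peroxisomal transporter Abcd3 rose against P7 cerebella (1.94, adjusted p = 0.0389) and against SHH MB (1.95, adjusted p = 0.0426), kept in 3 of 10 fits each and lost without tumor 2 or any P7 cerebellum or SHH MB (highest 0.217 and 0.216). For uptake, droplets and beta-oxidation limma called 0 genes against P7 cerebella, and for beta-oxidation also 0 against SHH MB. By DESeq2, 2 rose and 1 fell against P7 cerebella for uptake and likewise for droplets. For beta-oxidation 4 rose there by DESeq2 and 6 at an unadjusted p under 0.05. Against SHH MB, DESeq2 gave 3 higher droplet genes and 1 higher beta-oxidation gene. Of 24 PPAR receptors, partners and targets, the coactivator Ppargc1b rose against P7 cerebella (1.57, adjusted p = 0.0123) and SHH MB (2.40, adjusted p = 9.19e-04). Rxrg, a partner of PPAR, fell in both (-2.33, adjusted p = 0.0234, and -2.27, adjusted p = 0.0272). Against P7 cerebella both were lost without any 1 P7 cerebellum (highest adjusted p 0.08 and 0.108), and Rxrg against SHH MB without P7 cerebellum 1 or 2 or any SHH MB (highest 0.126). Against SHH MB, Dgat2 rose (2.23, adjusted p = 0.00294) and the transcription factor Srebf1 fell (-2.33, adjusted p = 4.77e-04), each in 10 of 10 such fits. Scap, which escorts SREBP proteins, rose (1.05, adjusted p = 0.0425) in 2 of 10, lost without tumor 2 or 4 or any P7 cerebellum or SHH MB (highest 0.231), and limma called 0 higher synthesis genes there.

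For uptake, droplets, synthesis, beta-oxidation and PPAR genes the medians against P7 cerebella were -0.04, -0.17, 0.11, 0.31 and 0.02, beside -0.05 for all genes. Against SHH MB they were 0.35, 0.40, 0.20, 0.10 and -0.11, beside 0.01. Between SHH MB and P7 cerebella they were -0.16, -0.28, -0.21, 0.15 and 0.17, beside -0.09. Of 25 synthesis genes 0 were called against P7 cerebella by edgeR, with 5 higher and 4 lower at an unadjusted p under 0.05, 2 and 1 by DESeq2 and 0 by limma, while without tumor 1 3 rose and 4 fell. Of the uptake genes 0 were called against SHH MB by edgeR, with 3 higher and 1 lower at an unadjusted p under 0.05, 1 and 0 by DESeq2 and 0 by limma, and 2 rose and 1 fell without tumor 3.

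The genes whose profile over the 10 libraries was closest to that of a member were then listed, chosen by these same values. Closeness is the root mean square difference of centred log2 CPM over 19337 candidate genes. Closest to Fabp7 were Dcx (0.40), a microtubule protein of young neurons, Tnc (0.83), Ncan (0.86), Cacng4 (0.88) and Miat (0.94). Dcx had 59, 226, 65 and 554 counts in tumors 1 to 4, 6239, 4926 and 4125 in the P7 cerebella and 3159, 4557 and 3798 in the SHH MB. The 2 closest to Fabp4 were H19 (0.94), an imprinted noncoding RNA, and Twist1 (1.00), a transcription factor. H19 had 257, 16515, 5771 and 1370 counts in tumors 1 to 4, 264, 503 and 297 in the P7 cerebella and 449, 502 and 696 in the SHH MB. Closest to Fabp5 were Rhobtb1 (0.26), Efna5 (0.27), F2rl2 (0.28), Pcdh15 (0.29) and Lix1l (0.33), and closest to Fabp3 were Adra2c (0.42), Adamts18 (0.47), Fam205a1 (0.52), Zdhhc22 (0.53) and Sez6 (0.54). The SD of Fabp3, Fabp4, Fabp5 and Fabp7 over the libraries was 1.28, 2.65, 0.74 and 2.72.

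**Figure D5:**
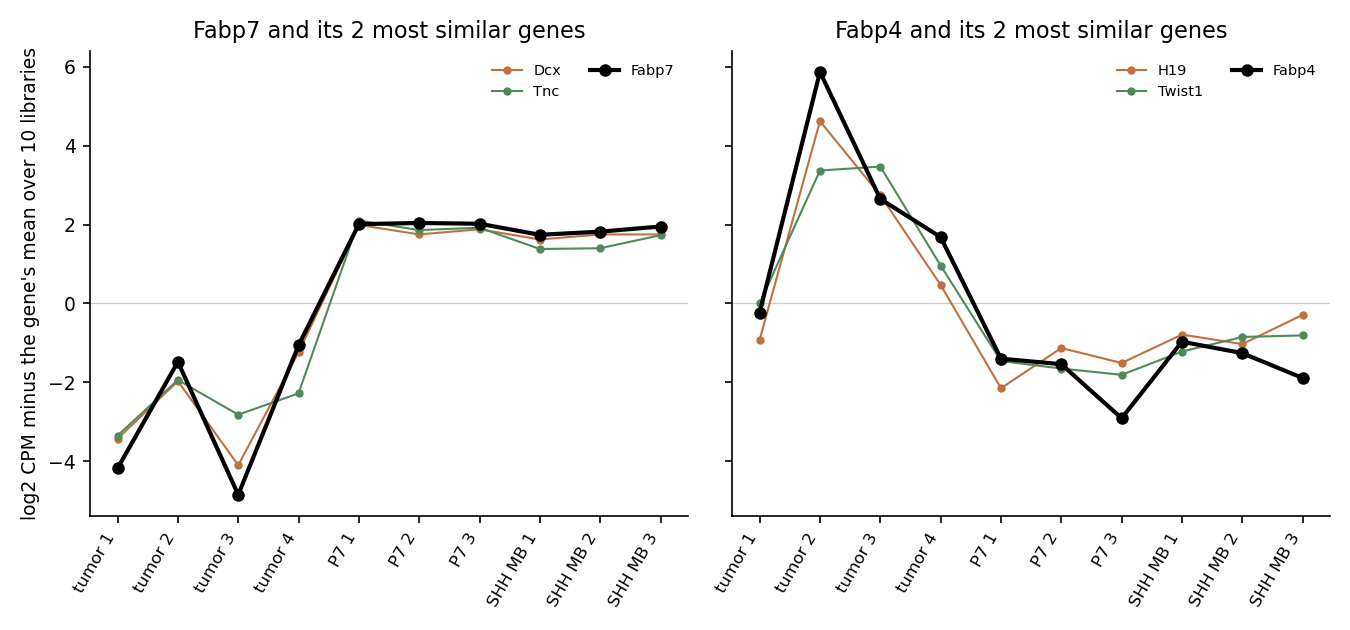
Centred log2 CPM (vertical axis) of Fabp7 and Fabp4, each with the 2 genes closest to it, in the 10 libraries, with a line per gene. Dcx lay at a distance of 0.40 from Fabp7 and H19 at 0.94 from Fabp4.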

How the data were processed

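RNA was measured in 10 FFPE samples of mice, 4 MYC/SMARCA4 tumors, 3 P7 cerebella and 3 SHH MB, with total RNA libraries (Lexogen CORALL) after removal of rRNA. The authors trimmed reads with Trimmomatic 0.38.1, aligned them to GRCm39 with STAR 2.7.8a and deposited counts per gene from featureCounts 2.0.1. The authors also deposited values on a log2 scale, a variance-stabilizing transformation (VST) by DESeq2 2.11.40.7. The annotation, the strand setting and the treatment of reads with several alignments are not given in the sources used here. The counts were used for all results, and the VST values for 1 alternative.

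All 10 libraries were fitted together in R 4.3.3 with edgeR 4.0.16 by group, with TMM factors, filterByExpr and quasi-likelihood F tests, which are two-sided. Common dispersion was 0.178. The SE of a log2 fold change was derived from the F test, as its absolute value divided by the square root of F. Adjustment by Benjamini-Hochberg was over all 29952 genes tested, and a gene was called at an adjusted p of at most 0.05. Levels are CPM on TMM library sizes, and log2 CPM with a prior count of 2. A floor of 3 counts per library was used. Intervals and floors cover counting error only. Depth was 5663491 to 9352109 counts per library. Compared were tumors with P7 cerebella, tumors with SHH MB, and SHH MB with P7 cerebella. No test was made for Fabp4 in the comparisons with the tumors.

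Alternatives were DESeq2 1.42.0, limma 3.58.1 on the VST values, RLE factors, a minimum of 10 counts in every library, no low-count filter, fits of only the 2 groups compared, robust estimation, a replicate block, library sizes without mitochondrial and rRNA-like genes, the study's threshold (log2 fold change of at least 2.5 and adjusted p of at most 0.01), a prior count of 0.5 for levels, and each library left out in turn. Members and lists were chosen with earlier results of these data known.

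Genes of the lists have the tests of the fit over all genes, and no test was made on a list as a whole. The lists were of relatives, of genes for fatty acid uptake, lipid droplets, synthesis, beta-oxidation and PPAR, of factors for the Fabp7 promoter, of markers of 12 cell types or states, and of label checks. Named are the members, relatives, up to 4 called genes with the largest log2 fold change per list and comparison with the tumors, the most abundant and defining markers, and up to 5 genes closest to each member. Other called genes of a marker list, and those most abundant in single libraries, were named after their values were seen. Positions are from GENCODE vM39 and promoter windows from RefSeq.

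The tumors differ from the other groups in age, host and tissue mix, which cannot be told apart from genotype. The number of libraries limits precision, and Fabp4 in P7 cerebella and SHH MB rests on at most 5 counts per library. Protein sequences were not used here.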

Additional observations from a re-analysis of the deposited data

Results flagged for a closer look

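Among 28 groups of 4 tumors checked, 2 had a sample far from the others, as the gap between the extreme sample and its nearest neighbor divided by the whole range. Chance gives this in about 1 in 20 groups of normally distributed values, a rate near the 2 of 28 found here. Fabp4 was chosen on its values in the tumors, so that its gap is a description and no test. For Fabp4, tumor 2 was highest, with a gap of 0.91 of the range of CPM. That gap is on CPM, and the log2 CPM values of tumors 1 to 4 were 0.80, 6.90, 3.69 and 2.71, among which no tumor stood out by the same measure. For the mean log2 CPM of the proliferation markers, tumor 1 was lowest, with a gap of 0.91 of the range. The causes were not tested.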

How the results depend on the processing

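Fabp7 kept its direction in each of the 19 alternatives of both comparisons with the tumors, and its call in all but 1: fitting only tumors and P7 cerebella gave -4.25 (adjusted p = 0.05 as rounded, range 4.84e-07 to 0.05). Fabp3 against P7 cerebella kept its direction in 18 alternatives. Its call was lost fitting only these groups (-2.40, adjusted p = 0.0536, range 5.48e-04 to 0.0894), with the replicate block (-2.42, adjusted p = 0.0894, the highest), at the study's threshold (-2.23) and without P7 cerebellum 1, 2 or 3 (-2.83 to -1.97 with 1 library left out). Fabp3 against SHH MB, not called, turned to -0.03 by limma, -0.14 with the replicate block, -0.56 without tumor 1, -0.16 without tumor 4, -0.07 without P7 cerebellum 1, 2 or 3 and -0.19 without SHH MB 1 (-0.56 to 0.33 with 1 library left out). Fabp5 against SHH MB ran from 0.48 to 1.07 with 1 library left out. In SHH MB against P7 cerebella Fabp3 passed the test at -2.26 by DESeq2 and at -2.26 fitting only these groups (-2.45 to -2.02 with 1 library left out), and Fabp5 at -0.44 fitting only these groups. Fabp4 was 3.33 and 2.93 by limma on VST values. Genes higher against P7 cerebella (1194) numbered 3143 by DESeq2, 553 by limma, 58 fitting only these groups, 165 with the replicate block, 27 at the study's threshold and 35 to 3381 with 1 library left out. Lower genes (680) numbered 1342 by DESeq2, 1031 with at least 10 counts in every library, 171, 206, 60 and 159 to 6551 under the last 4 of these. Against SHH MB, higher genes (727) numbered 2014 by DESeq2, 319 by limma, 88, 231, 37 and 54 to 2750, and lower genes (676) 1048 by DESeq2, 300, 400, 143 and 257 to 3979 in the same order. In SHH MB against P7 cerebella, higher genes (53) numbered 333 by DESeq2, 80 with at least 10 counts, 3884 fitting only these groups, 16 with the replicate block, 3 at the study's threshold and 0 to 854 with 1 library left out. Lower genes (14) numbered 132 by DESeq2, 8 by limma, 63, 2999, 3, 0 and 0 to 356 in that order. By edgeR at an unadjusted p under 0.05, 1545 were higher and 1091 lower in that comparison. The median over all genes moved by -0.27 against P7 cerebella and -0.19 against SHH MB with at least 10 counts in every library, and by -0.16 and -0.14 without tumor 3. Fabp3 and Fabp4 gave no value with at least 10 counts in every library, nor did Fabp4 without tumor 2, 3 or 4. The cause was not tested. Depth limits Fabp4 in the P7 cerebella and SHH MB, which lie at or near 3 counts per library.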
